A study of Mus musculus with 8 samples.

Results

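Mechanosensitive channels are membrane proteins that pass ions when the cell membrane is stretched or sheared, or that act in complexes doing so. Their mRNA was followed in lungs of mouse fetuses with an open or an occluded trachea. The 10 genes Piezo1, Piezo2, Trpv4, Trpv2, Pkd1, Pkd2, Kcnk2, Tmem63a, Tmem63b and Trpc1 were chosen by symbol as known or proposed channels of this kind, and each matched 1 of the 55385 gene identifiers with counts. All 10 were among the 22545 genes tested, those in which 3 libraries or more reached 5 reads. RNA came from whole lungs of C57BL/6 fetuses at E18.5 (embryonic day), from 4 control and 4 tracheal occlusion (TO) specimens, one library each, called here by group and replicate number. In TO fetuses a suture passed through the uterine wall had been tied around the trachea earlier in gestation. The tie also took in a carotid artery and a jugular vein, so TO lungs differ from control lungs in that vessel ligation as well. Progesterone was given to the dams, and how the control fetuses were handled is not given in the sources used here. Sex and litter were not given in the sources used here, so p-values measure only the spread between these specimens.

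The fetal lung secretes fluid into its airways, and closing the trachea holds that fluid in and distends the lung. Cells can sense such stretch through channels whose pore opens with membrane tension, letting in calcium and other cations or letting out potassium. Piezo channels are opened directly by tension, whereas for several transient receptor potential (TRP) channels and polycystins the mechanical step is less direct. None of this is measured by mRNA, which reports the amount of transcript and not the opening of a channel.

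One library stood apart before any comparison was made. Counts on genes numbered 270078 in TO 1, against 22822261 in Control 1, 30768440 in Control 2, 32382284 in Control 3, 24511486 in Control 4, 35002061 in TO 2, 24494782 in TO 3 and 34390241 in TO 4. At the depth of TO 1, a gene with 0 counts may still lie at up to 10.3 CPM (counts per 1000000, with library sizes scaled by the trimmed mean of M values, TMM), taking 3 counts as the limit. Summed over 5 skeletal muscle markers, TO 1 held 2268 CPM, and the other libraries held 6.20 to 149. By the mean of the other 7 libraries Acta1 was the most abundant of these markers, at 2.05 to 55.3 CPM there and 721 CPM in TO 1, where Myh8 was higher at 855 CPM. The 5 thymocyte markers summed to 224 CPM in TO 1 and to 13.7 CPM or less in every other library, with Rag1 at 162 CPM in TO 1. Cd8a was at 0 in 1 of the 7 deep libraries, and Cd3e, Ptcra and Dntt were each at 0 in 5. Each channel was therefore fitted with and without TO 1, and also in 6 libraries without Control 3 and TO 1, the specimens of the study's heat map.

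The label of the tissue was checked against marker genes. Sftpc, a surfactant protein gene of alveolar type 2 cells, lay between 4437 CPM in TO 1 and 12788 CPM in TO 2. Nkx2-1, a transcription factor of lung epithelium, was at 324 to 747 CPM, the endothelial cadherin Cdh5 at 356 to 634 CPM, and the collagen gene Col3a1 at 1971 to 4006 CPM. Epithelial, endothelial and fibroblast markers were thus present in all 8 libraries. The 5 pan-epithelial markers summed to 1883, 2023, 1884 and 1691 CPM in Control 1 to 4 and to 1151, 1609, 1707 and 1459.6 CPM in TO 1 to 4. The 6 endothelial markers summed to 1776, 1699, 2079.7 and 1586 CPM in controls and to 1127, 2057, 1352 and 1494 CPM in TO lungs. TO 1 was the lowest library for both sums.

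Markers of tissue around the lung and of immune cells also varied, and each list is named here with its marker of highest mean in the 7 deep libraries. The 7 cardiomyocyte markers, led by Myh6, summed to 714 and 507 CPM in Control 1 and Control 2 and to 2329 to 7012 CPM in the other 6 libraries. The 5 neutrophil markers, led by S100a9, summed to 47.3, 33.3, 25.4 and 19.0 CPM in controls and 69.0, 46.3, 89.9 and 144 CPM in TO lungs. Hepatocyte markers, led by Alb, summed to 653 CPM in Control 1, 309 CPM in TO 4 and 1.98 to 72.4 CPM elsewhere, and Apoa1, Fgb and Serpina1a were each at 0 in 1 deep library. Macrophage markers, led by Csf1r, summed to 100.3 to 110.0 CPM in controls and 114 to 166 CPM in TO lungs, and all TO libraries lay above all controls. TO 2 lay close, at 114 CPM against 110.0 CPM in Control 1. The sum of TO 1, at 128 CPM, rests on few read pairs, 14 of them of Csf1r. Of the single genes tested, 2.01% did not overlap between the groups, in either direction.

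Sums of the lists that follow overlapped between the groups. Alveolar type 2 markers, led by Sftpc, ran from 8947 to 15015 CPM in controls and from 6254 to 18858 CPM in TO lungs, and alveolar type 1 markers, led by Ager, from 813 to 1369.8 and from 445 to 1353 CPM. Fibroblast markers, led by Col3a1, ran from 4488 to 5324 and from 4843 to 8364 CPM, smooth muscle markers, led by Acta2, from 541 to 864 and from 431 to 923 CPM, and mesothelial markers, led by Msln, from 213 to 518 and from 179 to 429 CPM. Lymphatic endothelial markers, led by Lyve1, ran from 191 to 260.4 and from 162 to 289.7 CPM, and erythroid markers, led by Hbb-bs, from 2881 to 4683 and from 2017 to 4430.1 CPM. In several of these lists, such as the alveolar and mesothelial ones, TO 1 was the lowest library. Ciliated markers, led by Foxj1, ran from 168 to 189 and from 121 to 237 CPM. Neuroendocrine markers, led by Uchl1, were low in both groups at 17.6 to 29.5 and 20.7 to 30.8 CPM, with Resp18 at 0 in 3 deep libraries. Cartilage markers, led by Col2a1, were at 12.0 to 37.8 and 27.2 to 79.3 CPM, with Matn1 at 0 in 4 deep libraries and Cnmd in 1. The part of such tissue and cell differences in the channel values was not tested. Fewer cells of a type and less RNA per cell cannot be told apart in RNA of a whole lung.

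**Figure D1:**
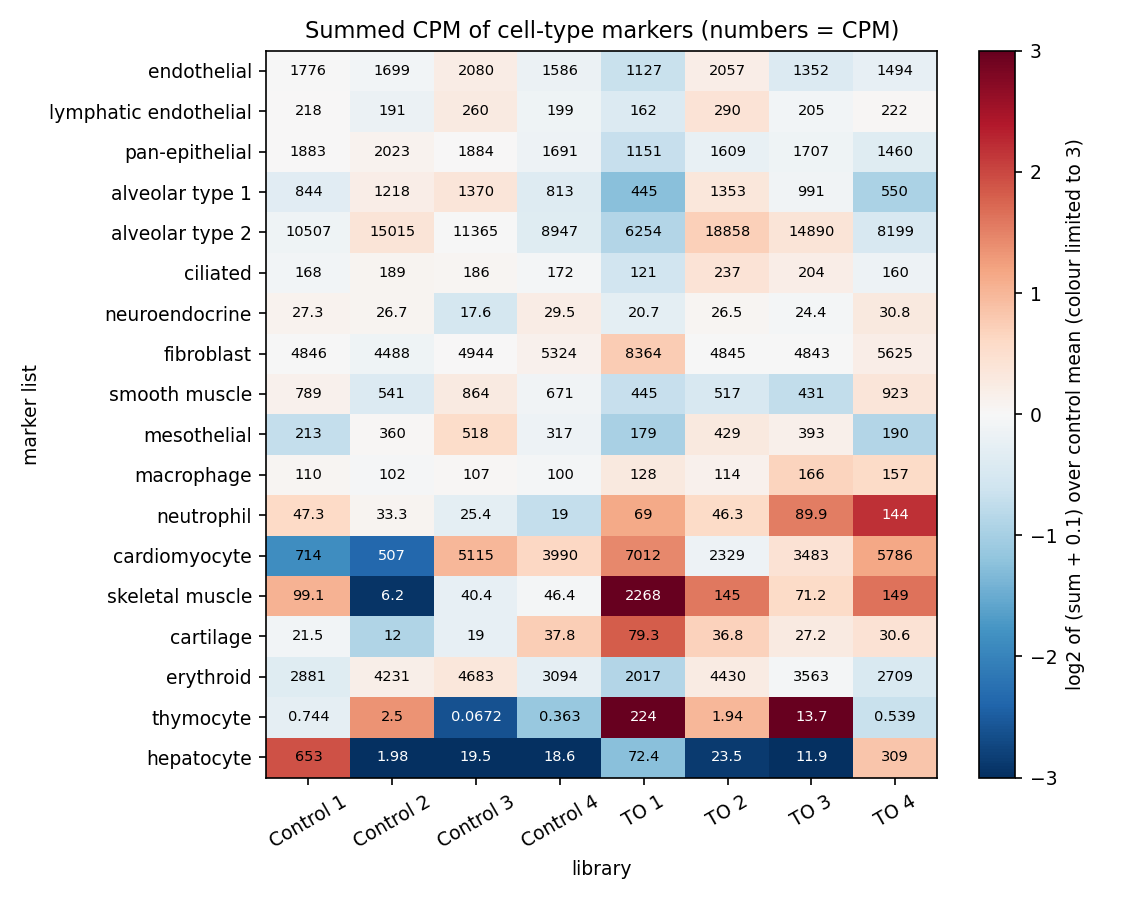
Summed CPM of marker lists (rows) in each of the 8 libraries (columns), with the CPM printed in each field and the colour giving log2 of the sum plus 0.1 over the control mean plus 0.1. TO 1 stands apart in the skeletal muscle (2268 CPM) and thymocyte (224 CPM) lists, and Control 1 and Control 2 are low in the cardiomyocyte list (714 and 507 CPM).

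No channel passed the test for a difference between TO and control lungs. The quasi-likelihood test of edgeR, at an adjusted p under 0.1 (Benjamini-Hochberg, across every gene in the fit), called 0 of the 10 channels and 0 of 22545 genes (0%). At an unadjusted p under 0.05 it marked 530 genes (2.35%) and 0 of the 10 channels. DESeq2 called 7 genes and limma-voom 0, and neither called a channel. With the replicate number as a block, edgeR called 3 of 22545 genes and 0 of the 10 channels. Control and TO values did not overlap for 453 of the 22545 genes (2.01%) and for 0 of the 10 channels. The fold change was below 0 in 8 of 10 channels and in 53.2% of all genes, and its median was -0.191 (log2) for the channels and -0.0185 for all genes. TO 1 and Control 3 weighed on that median, which was -0.0910 without TO 1 (8 of 10 channels and 52.0% of all genes below 0) and -0.0699 without Control 3. In the 6 libraries without both it was -0.0188, with 7 of 10 channels below 0, beside -0.00449 and 50.7% for all genes.

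**Figure D2:**
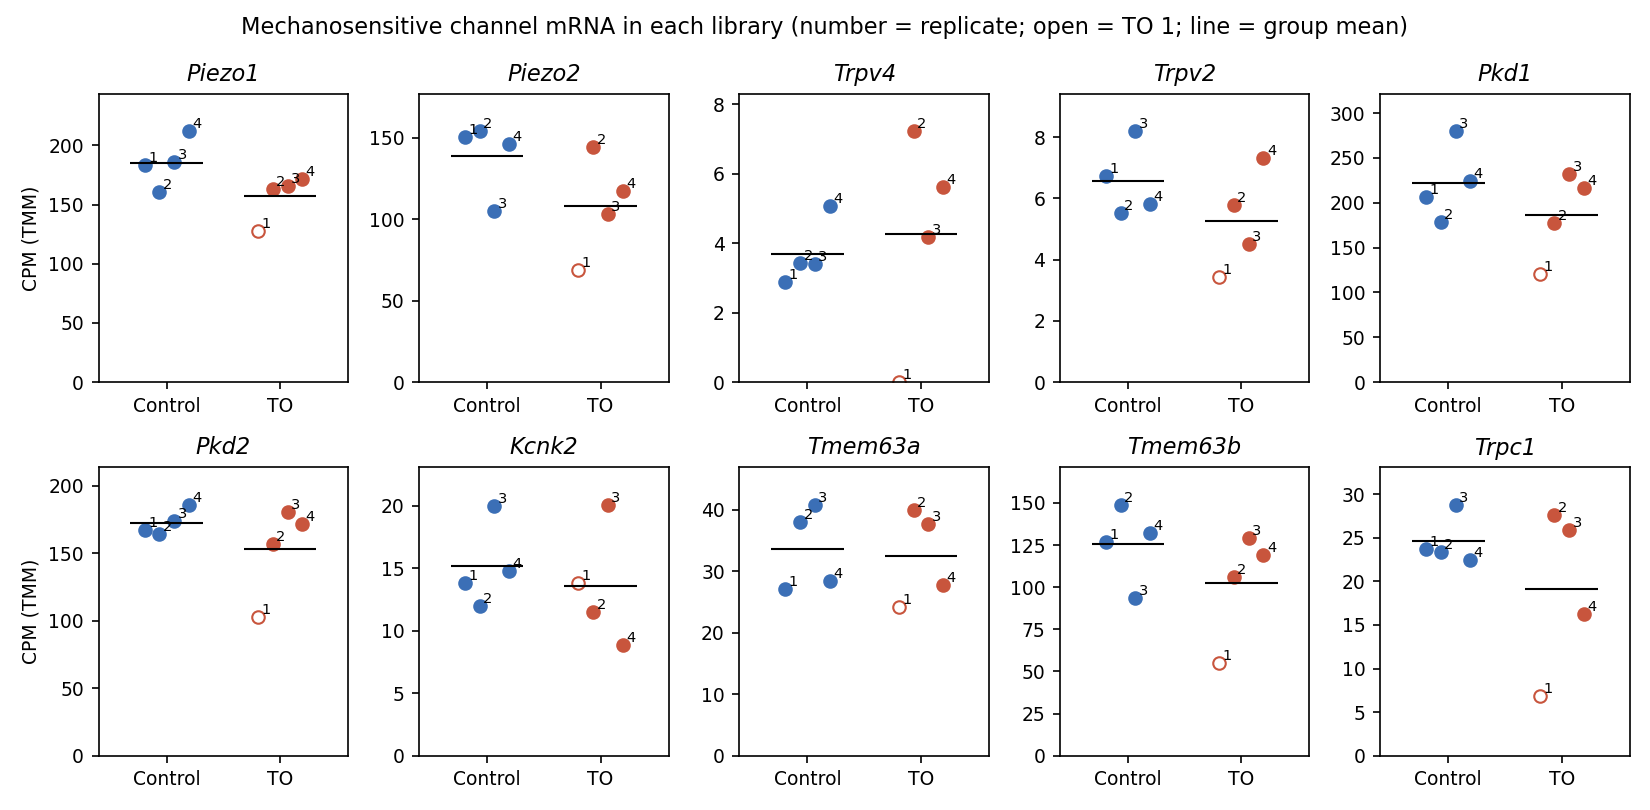
CPM after TMM scaling of each channel in each library, with points numbered by replicate, TO 1 open and lines at the group means. Groups overlap in every panel. The point of TO 1 is the lowest TO point in every panel but that of Kcnk2 (13.8 CPM). The interval of TO 1 for counting error reaches other TO libraries in Piezo1, Piezo2, Tmem63a, Kcnk2 and Trpc1. It also does so in Trpv4 (0 read pairs) and Trpv2 (1 read pair). In all of these panels the point of TO 1 gives no rank.

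Piezo1 and Piezo2 encode the pore-forming subunits of the Piezo channels, the first known from endothelium and red cells and the second from sensory neurons. Piezo1 (ENSMUSG00000014444.17) lies on chromosome 8 at 122481698 to 122551329 (build GRCm38, minus strand), and Piezo2 (ENSMUSG00000041482.17) on chromosome 18 at 63010213 to 63387183, minus strand. Piezo1 was at 183, 161, 186 and 212 CPM in Control 1 to 4 and at 128, 163, 166 and 172 CPM in TO 1 to 4. TO 1 lay below all controls, and the other TO libraries lay close together within the control range. The means were 186 ± 20.8 (SD, n = 4) in controls and 157 ± 20.3 (SD, n = 4) in TO lungs, and 167 ± 4.60 (SD, n = 3) without TO 1. The log2 fold change was -0.214 (SE 0.136, 95% interval -0.512 to 0.0837, edgeR adjusted p = 1.0), and -0.148 (SE 0.122) without TO 1. TO 1 rests on 37 read pairs for Piezo1, with an exact Poisson interval of 89.8 to 176 CPM that reaches into the control range. Such intervals cover counting error only, since the reads carry no molecular identifiers.

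Piezo2 was at 150.3, 154, 105 and 146 CPM in Control 1 to 4 and at 69.0, 144, 103 and 117 CPM in TO 1 to 4. Control 3 lay apart from the other controls and close to TO 3, and TO 2 lay near the upper controls. For Piezo2 the log2 fold change was -0.303 (SE 0.195, 95% interval -0.730 to 0.123, edgeR adjusted p = 1.0). It was -0.194 (SE 0.169) without TO 1, -0.462 without TO 2 and -0.307 (SE 0.133) in the 6 libraries, where the edgeR unadjusted p was 0.0461 and the adjusted p 0.907. In that fit 5.14% of all genes had an unadjusted p under 0.05. Piezo2 was lower in the TO library of each of the 4 replicate numbers, but in number 3 the Poisson intervals of the libraries overlapped. The share of all genes with such a course was not computed. With the number as a block the log2 fold change of Piezo2 was -0.303 (SE 0.159, edgeR unadjusted p = 0.0786), and -0.149 in the 3 numbers other than 1. The labels do not say that libraries of the same number form pairs. Per kb of exon, Piezo1 stood above Piezo2 by a ratio of 2.10, 1.81, 3.04 and 2.51 in controls and 3.20, 1.96, 2.80 and 2.55 in TO lungs, with overlapping groups.

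Trpv4 and Trpv2 encode calcium-permeable TRP channels of the vanilloid family, and Trpv4 is known to respond to cell swelling and to stretch of lung vessels and epithelium. Trpv4 (ENSMUSG00000014158.12) lies on chromosome 5 at 114622152 to 114658421, minus strand, and Trpv2 (ENSMUSG00000018507.16) on chromosome 11 at 62574486 to 62600515, plus strand. Trpv4 was at 2.89, 3.44, 3.39 and 5.08 CPM in Control 1 to 4 and at 0, 7.23, 4.17 and 5.62 CPM in TO 1 to 4. TO 2 and TO 4 were above all controls and TO 3 was within their range. The 0 in TO 1 is under a limit of 10.3 CPM, so it does not set TO 1 apart from any other library. The log2 fold change was 0.515 (SE 0.381, 95% interval -0.320 to 1.35, edgeR adjusted p = 1.0). Without TO 1 the means were 3.70 ± 0.954 CPM (SD, n = 4) and 5.67 ± 1.53 CPM (SD, n = 3), and the log2 fold change 0.617 (SE 0.306, 95% interval -0.0668 to 1.30, edgeR adjusted p = 1.0). Leaving out TO 2, its highest library, gave 0.268. Trpv4 was higher in the TO library of numbers 2, 3 and 4, but in numbers 3 and 4 the Poisson intervals overlapped. With the number as a block its log2 fold change was 0.394 (SE 0.382), and 0.504 in the 3 numbers other than 1.

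Trpv2 was at 6.74, 5.52, 8.20 and 5.81 CPM in controls and at 3.45, 5.79, 4.50 and 7.32 CPM in TO lungs. The value of TO 1 is a single read pair, with an interval of 0.0873 to 19.2 CPM. TO 3 lay below all controls, and TO 2 and TO 4 lay within their range. For Trpv2 the log2 fold change was -0.199 (SE 0.276, 95% interval -0.804 to 0.407, edgeR adjusted p = 1.0), and -0.0339 (SE 0.268) in the 6 libraries. Left-out libraries moved it both ways, to -0.391 without TO 4, -0.0587 without Control 3 and -0.0629 without TO 3. With 109 to 258 read pairs in the deep libraries, Trpv2 was among the channels least well counted.

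Trpc1 encodes a TRP channel of the canonical family that takes part in calcium entry, and lies on chromosome 9 at 95705082 to 95750375, minus strand (ENSMUSG00000032839.13). It was at 23.7, 23.4, 28.8 and 22.4 CPM in controls and at 6.90, 27.6, 25.9 and 16.2 CPM in TO lungs. TO 1 and TO 4 lay below all controls, and TO 2 and TO 3 lay within the control range. The value of TO 1 is 2 read pairs, with an interval of 0.835 to 24.9 CPM. The log2 fold change was -0.183 (SE 0.251, edgeR adjusted p = 1.0) and -0.000458 (SE 0.199) in the 6 libraries. It was larger without TO 2 (-0.362) or TO 3 (-0.299) and nearer 0 without TO 4 (-0.0432), Control 3 (-0.0713) or TO 1 (-0.0819).

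Pkd1 encodes polycystin 1, a large receptor-like protein, and Pkd2 encodes polycystin 2, a cation channel that joins it in primary cilia. Pkd1 (ENSMUSG00000032855.6) lies on chromosome 17 at 24549834 to 24596508, plus strand, and Pkd2 (ENSMUSG00000034462.9) on chromosome 5 at 104459450 to 104505819, plus strand. Pkd1 was at 206, 179, 279.9 and 224 CPM in controls and at 121, 177, 232 and 216 CPM in TO lungs. Control 3 was the highest library and TO 1 the lowest, and the remaining 6 lay between 177 and 232 CPM. For Pkd1 the log2 fold change was -0.217 (SE 0.197, 95% interval -0.647 to 0.213, edgeR adjusted p = 1.0), and -0.0931 (SE 0.168) without TO 1. The direction turned to 0.0350 (SE 0.137) in the 6 libraries, which lack 1 library each of numbers 1 and 3. Like Piezo2, Pkd1 was lower in the TO library of each number, but in numbers 2 and 4 the Poisson intervals overlapped. In number 2 the values were 179 and 177 CPM. The share of all genes lower in every number was not computed. With the number as a block its log2 fold change was -0.235 (SE 0.141), and -0.112 in the 3 numbers other than 1.

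Pkd2 was at 167, 164, 174 and 186 CPM in controls and at 103, 157, 180.3 and 172 CPM in TO lungs. It had the narrowest spread of the 10 channels in controls, a coefficient of variation of 5.60%, and its TO lungs other than TO 1 lay within 157 to 180.3 CPM. For Pkd2 the log2 fold change was -0.131 (SE 0.155, 95% interval -0.470 to 0.208, edgeR adjusted p = 1.0) and -0.0224 (SE 0.111, 95% interval -0.271 to 0.226) without TO 1. Per kb of exon the ratio of Pkd1 to Pkd2 was 0.721, 0.638, 0.942 and 0.706 in controls and 0.681, 0.657, 0.752 and 0.736 in TO lungs. Control 3 had the highest ratio, and Pkd1 was below Pkd2 in all 8 libraries by the counts used here, which leave out pairs from exon bases that Pkd1 shares with another gene.

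Kcnk2 encodes a potassium channel with tandem pore domains that membrane stretch opens, and lies on chromosome 1 at 189207930 to 189402273, minus strand (ENSMUSG00000037624.15). It was at 13.8, 12.0, 20.0 and 14.8 CPM in controls and at 13.8, 11.5, 20.1 and 8.88 CPM in TO lungs. Among the deep libraries Control 3 and TO 3 were the highest of their groups and TO 4 the lowest of all, while TO 1 rests on 4 read pairs with an interval of 3.76 to 35.3 CPM. The log2 fold change was -0.170 (SE 0.281, 95% interval -0.784 to 0.445, edgeR adjusted p = 1.0), and it turned to 0.0332 without TO 4 and to 0.00132 without Control 3. Without TO 3 it lay further below 0, at -0.522.

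Tmem63a and Tmem63b encode channels related to the osmotically gated OSCA channels of plants, and both are known to be opened by membrane stretch. Tmem63a (ENSMUSG00000026519.16) lies on chromosome 1 at 180942344 to 180975112, plus strand, and Tmem63b (ENSMUSG00000036026.15) on chromosome 17 at 45660171 to 45686905, minus strand. Tmem63a was at 27.1, 37.9, 40.8 and 28.4 CPM in controls and at 24.1, 40.0, 37.7 and 27.8 CPM in TO lungs. Replicates 2 and 3 of both groups lay near 40 CPM, and Control 1, Control 4 and TO 4 lay below 30. The value of TO 1 is 7 read pairs, and its interval of 9.70 to 49.7 CPM covers both levels. For Tmem63a the log2 fold change was 0.0140 (SE 0.202, 95% interval -0.427 to 0.455, edgeR adjusted p = 1.0). Its sign turned in several of the alternatives.

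Tmem63b was at 127, 149, 93.8 and 132 CPM in controls and at 55.2, 106, 129 and 119 CPM in TO lungs. TO 1 lay below all controls and the other TO libraries lay within the control range. The log2 fold change was -0.222 (SE 0.211, 95% interval -0.683 to 0.239, edgeR adjusted p = 1.0) and -0.0890 (SE 0.162) without TO 1. It was -0.207 (SE 0.116) in the 6 libraries and -0.313 without Control 3, the lowest control. The ratio of Tmem63b to Tmem63a per kb of exon was 4.11, 3.46, 2.02 and 4.08 in controls and 2.01, 2.33, 3.01 and 3.77 in TO lungs, so that both groups covered nearly the same range.

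**Figure D3:**
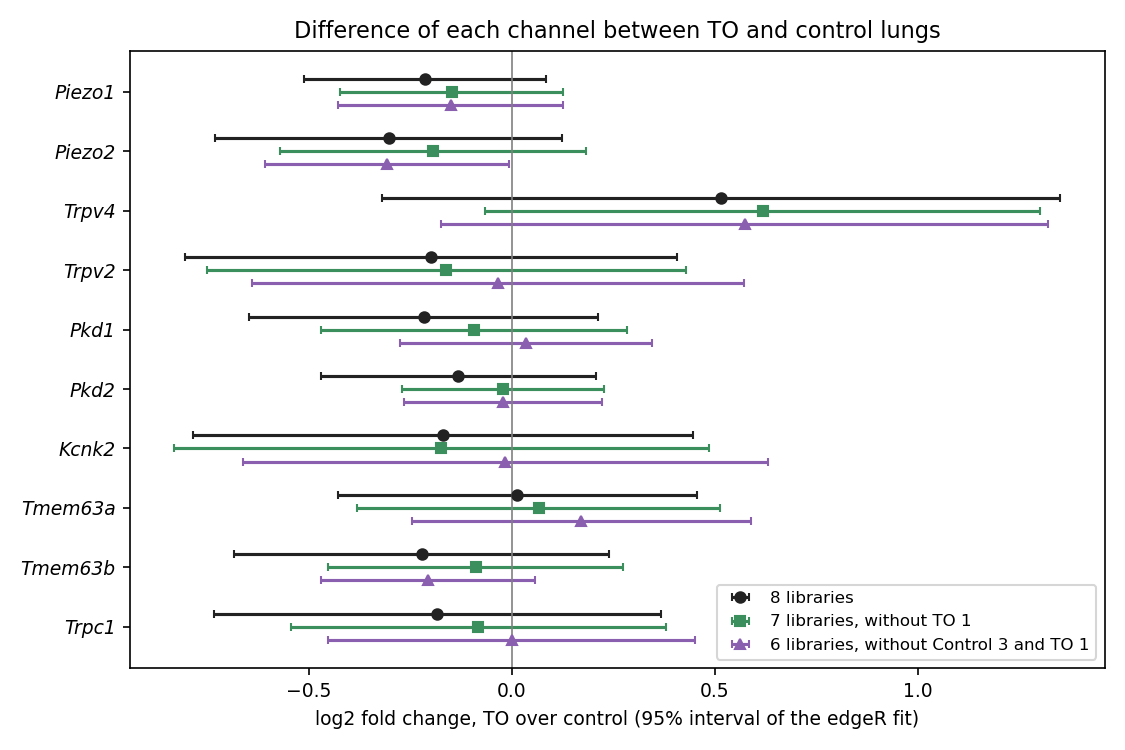
Log2 fold change of TO over control for each channel with its 95% interval from the edgeR fit, in 8 libraries, in 7 without TO 1 and in 6 without Control 3 and TO 1. All intervals include 0 except that of Piezo2 in the 6 libraries (-0.607 to -0.00651), whose adjusted p was 0.907.

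Between genes, levels were compared per kb of exon, with the union of all annotated exons of a gene as its length. Which transcripts the lungs express was not examined. A gene whose expressed transcripts are shorter than that union is placed too low, and the ratios per kb given above share this limit. In controls the order by mean was Tmem63b at 24.6, Piezo1 at 18.7, Pkd2 at 17.0, Pkd1 at 12.8, Piezo2 at 8.09, Tmem63a at 7.47, Kcnk2 at 3.07, Trpc1 at 3.06, Trpv2 at 1.46 and Trpv4 at 0.908 CPM per kb, a span of 27.0 times. The control ranges of neighbours overlapped for Tmem63b and Piezo1, Piezo1 and Pkd2, Piezo2 and Tmem63a, Kcnk2 and Trpc1, and Trpv2 and Trpv4, so the ranges alone do not set the order of these pairs. Read within each library, Piezo1 was above Pkd2 and Trpv2 above Trpv4 in all 4 controls, while the other 3 pairs changed order between controls. They did not overlap between Pkd2 and Pkd1, Pkd1 and Piezo2, Tmem63a and Kcnk2, or Trpc1 and Trpv2, and in each of these the gene first named was higher in all 7 deep libraries by the counts used here. By the mean of TO 2, TO 3 and TO 4 the first 4 places were held by the same genes in the same order, while Piezo2 and Tmem63a, Kcnk2 and Trpc1, and Trpv2 and Trpv4 changed places. Single libraries departed from this order of means. Pkd2 was above Piezo1 in TO 3 (17.7 against 16.8 CPM per kb), Piezo2 above Tmem63a in TO 4, Kcnk2 above Trpc1 in TO 3 and Trpv2 above Trpv4 in TO 4.

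**Figure D4:**
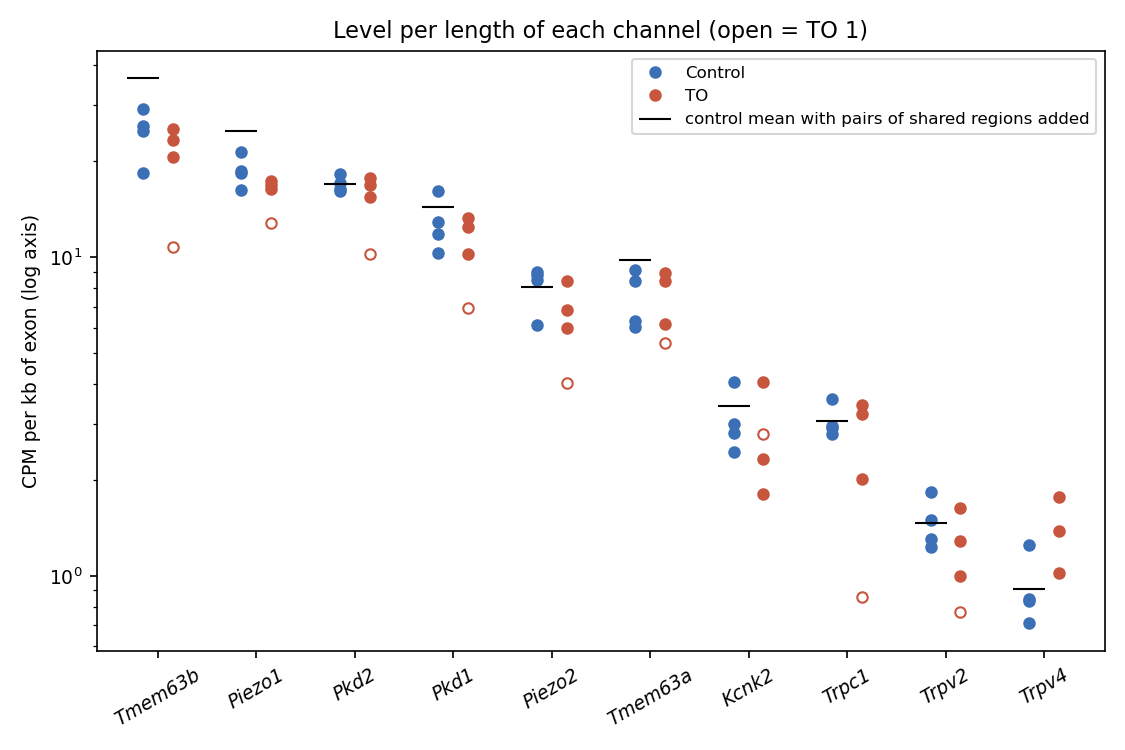
CPM per kb of exon of each channel on a log axis, with one point per library, TO 1 open and the 0 of Trpv4 in TO 1 not drawn. Black bars give the control mean when pairs from exons shared with an opposite-strand gene are added, as for Tmem63b (36.5 in place of 24.6 CPM per kb).

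Exons shared with other genes limit these levels, because the library kit does not mark strand and a read pair that fits more than 1 gene is counted for none. Piezo1 shares 2441 of its 9935 exon bases (24.6%) with Ctu2 on the opposite strand, Kcnk2 604 of 4943 (12.2%) with the antisense gene A430027H14Rik, and Pkd1 693 of 17415 (3.98%) with Tsc2. Tmem63b shares 394 of 5098 bases (7.73%) with Gm16172 and Mrpl14, and Tmem63a 157 of 4492 with 2210411M09Rik. Counting each strand apart and adding both gives an upper limit that holds every pair from the shared bases, whichever gene it came from. This limit was 1.43 to 1.63 times the count used here for Tmem63b in the deep libraries, 1.28 to 1.42 times for Piezo1, 1.21 to 1.42 times for Tmem63a, 1.07 to 1.24 times for Kcnk2 and 1.10 to 1.19 times for Pkd1. For Piezo2, Trpv4, Trpv2, Pkd2 and Trpc1, which share no exon bases, it equalled that count. The order above therefore depends in part on these bases. At the upper limit Tmem63b (28.7 to 42.9 CPM per kb in controls), Piezo1 (23.1 to 28.3) and Pkd2 (16.1 to 18.3) no longer overlapped. Pkd1 (12.2 to 17.9) then did overlap with Pkd2 and stood above it in Control 3 (17.9 against 17.1 CPM per kb), and below it in the other 7 libraries. The mean of Tmem63a passed that of Piezo2 (9.82 against 8.09 CPM per kb), with overlapping ranges. The ratios between Piezo, polycystin and Tmem63 genes have the same limit.

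Genes with the most similar course over the 7 deep libraries were found for each channel among 11281 genes with at least 5 CPM in each of them, by Pearson's r of log2 CPM. These r describe 7 libraries, are the highest among many and carry no test. For Piezo1 they were Zfp449 (0.966), Ccdc50 (0.922) and Abca2 (0.916), and for Piezo2 Emid1 (0.980), Ptger3 (0.978) and Med10 (0.977). Emid1 was at 30.3, 34.8, 12.4 and 30.8 CPM in controls and 29.2, 15.1 and 18.6 CPM in TO 2 to 4, low like Piezo2 in Control 3, TO 3 and TO 4. For Trpv4 they were Dnajb5 (0.967), Gpr107 (0.958) and Zc3h12c (0.952), and for Trpv2 Mnat1 (0.989), Zfp212 (0.979) and Mpp6 (0.963). Trpv2 itself is counted on few read pairs, which adds noise to its course. For Pkd1 they were Dcbld2 (0.995), Ak4 (0.992) and Aoc3 (0.989), and for Pkd2 Atp8b2 (0.953), Klhl12 (0.937) and Zfp867 (0.928). Dcbld2 was at 84.6, 68.9, 112 and 89.7 CPM in controls and 70.3, 92.8 and 86.6 CPM in TO 2 to 4, with its highest value in Control 3 as for Pkd1. Kcnk2 went with Apbb2 (0.985), Dmtf1 (0.973) and Lrif1 (0.960), Tmem63a with Socs3 (0.981), Armc2 (0.978) and Ctsc (0.978), Tmem63b with Dus3l (0.982), Ewsr1 (0.978) and Mcts1 (0.977), and Trpc1 with Fam210b (0.996), Kif27 (0.981) and Rffl (0.971). No gene was named for more than 1 channel.

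Other genes of the same biology were read from the same fit. Of 41 other mechanically gated or related channels, 35 were tested, 14 with a fold change above 0 and 21 below, with a median of -0.0863 (log2), and edgeR called 0. Of all genes, 53.2% lay below 0 in that fit, 52.0% without TO 1 and 50.7% in the 6 libraries. Without TO 1 the median was -0.0333, with 16 above and 19 below, and in the 6 libraries -0.0348. In that last fit 1 of 34 genes, a lower one, had an edgeR unadjusted p under 0.05, beside 5.14% of all genes. Their 3 most abundant members were Trpm7, a channel joined to a kinase, at 117 to 206 CPM in the deep libraries, Lrrc8c, a subunit of volume-regulated anion channels, at 85.6 to 136 CPM, and Trpm4, a sodium-passing channel opened by calcium, at 40.2 to 58.8 CPM. Kcnk6, another potassium channel with tandem pore domains, was the only one at an edgeR unadjusted p under 0.05 in the fit of 8 libraries, beside 2.35% of all genes. It was at 17.0, 13.1, 12.3 and 17.8 CPM in controls and 24.1, 18.1, 21.3 and 20.2 CPM in TO lungs. Every TO library lay above every control for Kcnk6, as for 2.01% of all genes in either direction, with a log2 fold change of 0.432 (SE 0.192, edgeR unadjusted p = 0.0451, adjusted p = 1.0). TO 1 holds 7 read pairs of it. Without TO 1 the log2 fold change was 0.402 (edgeR unadjusted p = 0.0582), and in the 6 libraries 0.314 (edgeR unadjusted p = 0.107), so that the mark was lost in both.

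Of 24 partners and regulators of the channels, all were tested, 9 above 0 and 15 below, with a median of -0.0210 and 0 called by edgeR. Of all genes, 53.2% lay below 0 in this fit, 52.0% without TO 1 and 50.7% in the 6 libraries. The balance of the 24 genes depended on TO 1, for without it 12 were above and 12 below with a median of 0.00887. In the 6 libraries 14 were above and 10 below, with a median of 0.0318. The most abundant were the actin crosslinker Flna at 1069 to 1571 CPM, the calcium pump gene Atp2a2 and the ubiquitin ligase gene Nedd4l at 165 to 464 CPM. Atp2a2 was at 342 and 297 CPM in Control 1 and Control 2 and at 605 to 1093 CPM in the other 6 libraries, the same libraries that were low and high for cardiomyocyte markers, and the part of heart tissue in it was not tested. Stim1, the calcium sensor of the endoplasmic reticulum, was at 39.5, 32.6, 42.5 and 41.6 CPM in controls and 69.0, 46.6, 50.9 and 45.6 CPM in TO lungs. All TO libraries were above all controls for Stim1, again as for 2.01% of all genes in either direction, with a log2 fold change of 0.371 (SE 0.161, edgeR unadjusted p = 0.0404, adjusted p = 1.0). Without TO 1, which holds 20 of its read pairs, it was 0.290 (edgeR unadjusted p = 0.0660), so that the mark was lost, and in the 6 libraries 0.330 (edgeR unadjusted p = 0.0371). Atp2a2 was also marked in the 6 libraries (0.720, edgeR unadjusted p = 0.0348), beside 5.14% of all genes in that fit. Of 24 genes of the calcium and shear response, 13 were above 0 and 11 below, with a median of 0.0166. Among them edgeR marked 0 at an unadjusted p under 0.05, beside 2.35% of all genes. Without TO 1 there were 12 above and 12 below, and the median was 0.00249. In the 6 libraries it was 0.00870, with 1 gene of the list marked as higher, beside 5.14% of all genes marked in either direction. Among its more abundant members, Calm2 was at 288 to 375 CPM and Calm3 at 216 to 333 CPM, with overlapping groups for both.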

How the data were processed

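The authors aligned read pairs from whole lung with STAR to mm10 (GRCm38), and the deposited values are counts of read pairs per gene, not normalized, in an unstranded column and a column for each strand. The versions of STAR and of the annotation are not given in the sources used here. The unstranded counts were used, with 270078 to 35002061 counts on genes per library. Of 55385 identifiers, 54487 matched GENCODE M21 with version and 55144 without, which gave symbols, positions and exon lengths. Pairs fitting no gene or more than 1 gene stayed out of library sizes. They made up 9.64% to 14.9% and 5% to 5.74% of all pairs. The main test was edgeR 4.0.16 under R 4.3.3 (quasi-likelihood test, TMM, group as the only term, genes reaching 5 reads in 3 libraries or more, Benjamini-Hochberg over all genes, threshold 0.1). It was tested on simulated data, with changes far larger than any fitted here for the channels. That simulation therefore does not show how often changes of the channels' size would be called. A first criterion, recovery among all changed genes, was missed and replaced by recovery among those at 10 CPM or more, which was met. Most changed genes it missed lay under 10 CPM, as Trpv4 and Trpv2 do here, and it also called some unchanged genes. The standard error is the log2 fold change over the square root of its F statistic. DESeq2 1.42.0, limma 3.58.1 (voom), other filters, scalings and libraries, strand columns and a replicate block were alternatives. Log2 CPM used a prior count of 2. Intervals were computed in Python 3.11.15 with scipy 1.17.1. Within a group no pair of libraries agreed within sampling noise (mean chi-square per gene of 10.4 or more).

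Named are the 10 channels, the 3 genes most similar to each, the 3 most abundant genes (mean of the 7 deep libraries) of each pathway list with any at an unadjusted p under 0.05, and for marker lists the most abundant gene with any at 0 in a library over 10000000 counts. Results that need 2 of the genes this rule takes in are not reported here. Members and lists were chosen with earlier results of these data known.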

Additional observations from a re-analysis of the deposited data

Results flagged for a closer look

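Piezo2 in Control 3, at 105 CPM, lay far below the other controls, which were at 146 to 154 CPM, and this gap is large for a group of 4 when taken as a share of the range of the group. Of 27 groups of values examined, 1 held such a library. These were each channel and each ratio between related channels in each group with 4 values. The ratio of Trpv2 to Trpv4 has no value in TO 1, where Trpv4 is at 0. Chance alone marks about 1 in 20 groups. Without Control 3 the log2 fold change of Piezo2 was -0.393, beside -0.303 with all 8 libraries. By this measure TO 1 was not marked in any channel. In CPM its gap to the nearest TO library was larger than that of Control 3 in Pkd1 (121 against 177), Pkd2 (103 against 157) and Tmem63b (55.2 against 106).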

How the results depend on the processing

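Of 21 alternatives, 20 were fixed at the start and 1, DESeq2 on the 6 libraries, was chosen after seeing the data. No channel was called under any of them. Genes called, 0 with edgeR, were 7 with DESeq2, 44 with DESeq2 on the 6 libraries and 0 with limma-voom, other filters and scalings, either strand column, the 6 libraries in edgeR and the 8 fits that leave out a library. With a replicate block, pairing libraries of the same number, edgeR called 3 genes, and 3 with a replicate block on 3 pairs without number 1. The numbers were not taken as pairs. Deviations of same-numbered libraries correlated across genes at 0.0518, 0.13, 0.157 and 0.0709 for numbers 1 to 4, and TO 4 correlated better with Control 1 (0.0971). Without number 1 each library correlated best with its own number (0.13, 0.173 and 0.176), a hint from the data and not from the design.

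Of 206 values for single channels under alternatives, 192 kept their direction and 14 did not, and the cause was not tested. Pkd1 turned to 0.0350 in the 6 libraries and 0.0468 there with DESeq2. Tmem63a turned to -0.0373 with the replicate block, -0.0222 with 3 pairs and -0.193 in column 4, and ran from -0.0999 to 0.142 when single libraries were left out. Kcnk2 ran from -0.522 to 0.0332 in the same way. Trpv2 was 0.219 and Trpc1 0.0684 in column 3, against -0.588 and -0.373 in column 4, and Trpc1 was 0.0130 with DESeq2 on the 6 libraries. An unadjusted p under 0.05 was reached by Piezo2 alone, in the 6 libraries, without Control 3 and without TO 2. Among all genes, 1123 of 21859 (5.14%), 956 of 21867 and 638 of 21882 reached it in these edgeR fits, in that order. Piezo1, Piezo2, Trpv4, Pkd2 and Tmem63b kept their direction in every alternative that gave them a value. With single libraries left out they ran from -0.275 to -0.141, -0.462 to -0.194, 0.268 to 0.700, -0.204 to -0.0224 and -0.327 to -0.0890, and Pkd1 from -0.325 to -0.0685. With 5 reads required in every library, Trpv4, Trpv2, Kcnk2 and Trpc1 were not tested, because TO 1 holds too few of their reads. The median of the channels ran from -0.242 to -0.0699 when single libraries were left out, and was nearest 0 in the 6 libraries (-0.0188, and -0.00576 with DESeq2).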

Other observations

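Among 6 genes of the fixed lists, the sum of both strand columns was more than 2 times the unstranded count. Most of that sum thus fell on bases shared with another gene, and which gene such pairs came from was not tested. Tagln, a smooth muscle gene chosen here after its values were seen, had 94 read pairs in the unstranded column over the 7 deep libraries and 30492 in both strand columns. Its 0.195 to 0.694 CPM in those libraries leaves out all pairs of the shared bases. The natriuretic peptide gene Nppa had 10174 and 98305 pairs, and the polycystin relative Pkd1l3 605 and 5254. Pkd2l2, Nos3 and Resp18 had ratios of 2.45, 3.12 and 2.91. These sums are upper limits.

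Tmem63a and Socs3, a feedback inhibitor of cytokine signalling, went together over the deep libraries. Socs3 was picked as the most similar of 11281 genes (0.981), so this likeness follows from the choice. Armc2 and Ctsc were nearly as similar, each at 0.978. Socs3 was at 12.8, 19.1, 22.6 and 14.0 CPM in controls and 19.6, 20.5 and 13.9 CPM in TO 2 to 4. Libraries 2 and 3 of both groups were the higher ones for both genes, and libraries 1 and 4 of the controls and TO 4 the lower ones.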
